A study of Oryza sativa with 36 samples.

Results

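The regions described here are 587 peaks of N6-methyladenosine (m6A) in root transcripts of rice (Oryza sativa, Nipponbare) that carries FTO. They were chosen from the 14215 peaks of the first FTO root replicate. A peak was taken when its blocks shared 1 bp or more, on its strand, with a peak of the second FTO root replicate and none with a peak of either wild-type root replicate. Of the 12482 peaks found in both FTO root replicates, 4.7% met this rule, and they lay in 539 genes, called hosts below. The 12 lists of peaks in genes hold 173074 peaks over both tissues.

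The study grew seedlings hydroponically in Kimura B solution to an age of 15 days and sampled shoots and roots of 3 genotypes: wild type (Nipp), rice carrying FTO, and rice carrying FTOmut, a form of the protein without demethylase activity. Both transgenic genotypes share a transgene that wild type lacks, and FTO differs from FTOmut in the activity of the protein. No source used here gives the promoter or the number of transgenic lines, and the FTO transcript itself was not analysed here. Each genotype and tissue had 2 m6A-seq replicates, each an immunoprecipitate with its input from poly(A) RNA, and 2 RNA-seq libraries. The RNA-seq protocol removed ribosomal RNA after adding ERCC spike-ins, while a label names the molecule as polyA RNA. The labels do not say that replicates came from separate cultures, so p-values measure only the spread between these samples. In the 6 root RNA-seq libraries, between 13409607 and 17082869 counts fell in genes. FTOmut root replicate 2 stood apart, with 46275 genes at 10 or more counts against 23270 to 30283 in the other root libraries.

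m6A is the most common internal mark of messenger RNA. Methyltransferase complexes write it, proteins with a YTH domain read it, and demethylases of the AlkB family remove it. FTO is such a demethylase of animals, and plants have no FTO of their own. In m6A-seq, RNA fragments are pulled down with an antibody and a peak is called where the immunoprecipitate exceeds the input, so a peak can be called only where a transcript gives enough reads. A peak that is missing from a list was not called there, which is not a measurement that m6A was absent.

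The gained peaks were shorter and less enriched than the peaks that all 4 lists shared. Their median fold of immunoprecipitate over input, as the authors' caller gave it, was 12 in FTO replicate 1 (range 3.09 to 135) and 13.5 in replicate 2 (2.79 to 184). The 10701 peaks found in both FTO and both wild-type root lists had medians of 39 and 40.3. Median width was 151 bp for gained and 261 bp for shared peaks. The fold was a whole number, within 0.001, for 81.4% of the gained and 52.2% of the shared peaks. Because the rule used these lists, the values describe the choice and carry no test.

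Both FTO replicates gave the same host for every gained peak, and 412 of the 587 folds lay within 2-fold of each other. Replicate 2 had the higher fold at 325 peaks, replicate 1 at 248, and 14 were equal. At the edge of the rule, 7 gained peaks overlapped their partner in replicate 2 by under 10 bp. Just outside it were 1194 replicated FTO peaks found in exactly 1 wild-type list, and for 20 of these the wild-type overlap was under 50 bp. Another 835 peaks of FTO replicate 1 were in neither wild-type list but not in FTO replicate 2 either.

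**Figure D1:**
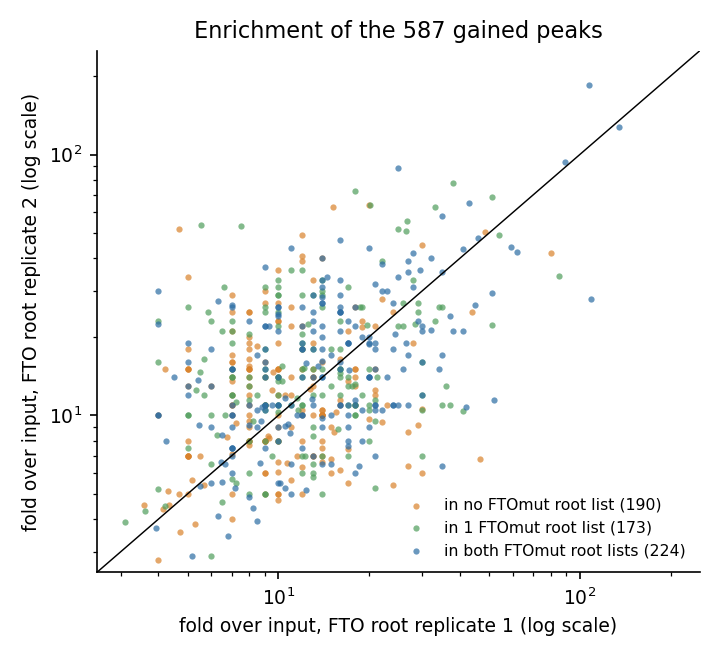
Fold of immunoprecipitate over input of the 587 gained peaks in FTO root replicate 1 (x axis) and replicate 2 (y axis), both on log scales, with the line of equality. Colours give the number of FTOmut root lists with an overlapping peak: 190 peaks in none, 173 in 1 and 224 in both, and peaks of each colour occur over most of the range.

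The number of gained peaks depended on single lists. It was 1168 without wild-type replicate 1, 1200 without wild-type replicate 2, 1422 when FTO replicate 1 alone had to hold the peak and 2241 when FTO replicate 2 alone had to. Among FTO replicate 1 peaks present in both wild-type lists, 388 of 11089 were missing from FTO replicate 2, which is 3.5%. That share was 10.7% at a fold under 10, 6.83% at a fold of 10 to 20 and 2.01% at a fold of at least 20. The same rule applied in other directions gave 326 peaks in wild type and not in FTO, 849 in FTOmut and not in wild type, and 536 in FTO and not in FTOmut. As shares of the replicated peaks of their first genotype these were 2.65%, 6.69% and 4.29%.

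Most gained peaks were also found in FTOmut roots. An overlapping peak stood in at least 1 FTOmut root list for 397 of 587, or 67.6% (exact 95% binomial interval 63.7 to 71.4%, counting error only). It stood in replicate 1 for 303, in replicate 2 for 318 and in both for 224, which is 38.2% (34.2 to 42.2%). The shared peaks had an FTOmut root peak in 98.5% of cases and in both lists in 93.6%. The lists that give these shares played no part in the rule.

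The share with an FTOmut peak was larger for more enriched peaks. It was 124 of 208, or 59.6%, at a fold under 10 in FTO replicate 1, 170 of 254, or 66.9%, at a fold of 10 to 20, and 103 of 125, or 82.4%, at a fold of at least 20. In the same bins the shared peaks reached 93.2%, 96.4% and 99.4%. At the 224 sites with a peak in both lists of FTO and of FTOmut, the median of the mean fold was 15.5 in FTO and 17.5 in FTOmut. Both FTOmut folds lay above both FTO folds at 51 of these sites and below both at 26. Folds of different lists rest on different libraries, so these are given without a test.

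Many sites were marked in shoots as well. At least 1 wild-type shoot list held 342 of the gained peaks, or 58.3% (54.2 to 62.3%), and at least 1 FTO shoot list held 367, or 62.5%. All 8 lists outside FTO root and wild-type root held 89 of them, or 15.2%, against 80.9% of the shared peaks. At the other end, 75 gained peaks, or 12.8%, were in none of the 8 lists, against 0.355% of the shared peaks. Only 1 gained peak was in both FTO shoot lists and in no list of wild type or FTOmut.

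**Figure D2:**
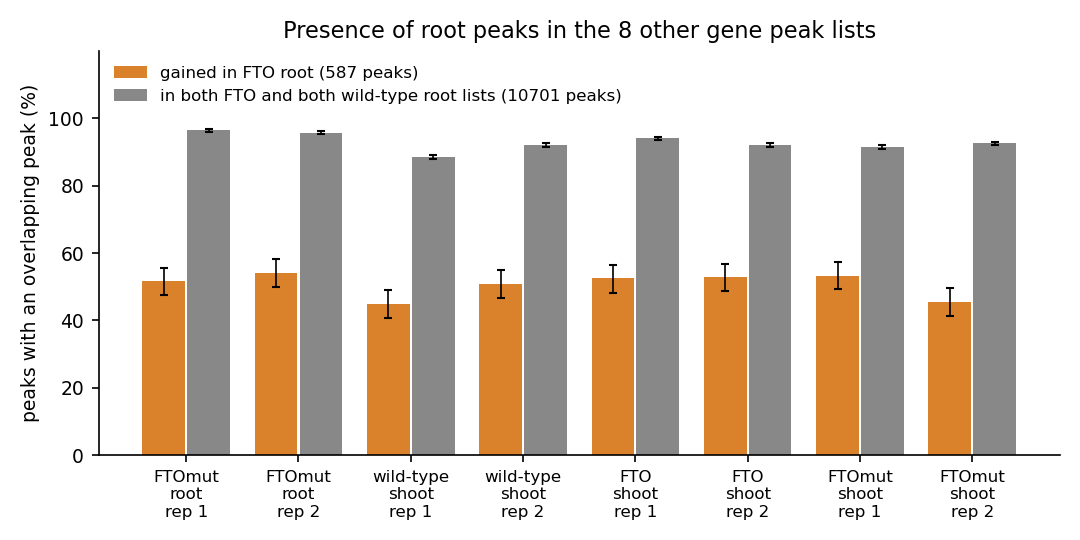
Percent of peaks (y axis) with an overlapping peak in each of the 8 lists that the rule did not use (x axis), for gained and shared peaks, with exact 95% binomial intervals. Between 44.8% and 54.2% of the gained peaks were found in any 1 list, against 88.5% to 96.4% of the shared peaks.

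The 10 gained peaks with the highest fold, taken by the lower of the 2 FTO replicates among hosts tested for expression, lay in hosts that were at 4.82 to 90.7 CPM (counts scaled to library size) in wild-type root. None of these 10 hosts had any peak in wild-type root. Of the 10 peaks, 9 were in at least 1 FTOmut root list and 9 in at least 1 wild-type shoot list. Of their hosts, 5 were lower in FTO than in wild-type root, 2 were higher and 3 were not called (edgeR quasi-likelihood test, Benjamini-Hochberg adjusted p under 0.05, which is what "called" means for RNA throughout). Over all genes tested 35.1% were called, 16.3% higher and 18.8% lower.

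The peak of LOC_Os04g47590 (chr4:28224528-28224768, minus strand) had folds of 135 and 127 in the FTO root lists, 39.3 and 40.9 in FTOmut root, and 47 and 32 in wild-type shoot. Its host was at 67.0 and 72.8 CPM in wild-type root, 25.4 and 27.7 in FTO root and 47.6 and 49.0 in FTOmut root. The FTO libraries lay below both others, and the log2 fold change against wild type was -1.40 (SE 0.18, edgeR adjusted p = 3.38e-05). LOC_Os01g40250 carried a peak (chr1:22728076-22728525, plus strand) with folds of 107 and 184 in FTO, 309 and 88 in FTOmut root, and 129 and 106 in wild-type shoot. Its RNA stood at 65.5 and 54.5 CPM in wild type and at 25.0 and 29.1 in FTO root, which is -1.15 on the log2 scale (SE 0.20, edgeR adjusted p = 0.000523). The 2 sites with the highest folds were thus called in every list but those of wild-type root, in hosts whose RNA was more abundant in wild-type than in FTO root.

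At LOC_Os09g31220 (chr9:18779594-18779773, minus strand) the folds were 89 and 94 in FTO and 35.7 and 28.3 in FTOmut root, with the host at 13.5 and 16.5 CPM in wild type and, in FTO, 8.03 and 9.5. A peak of LOC_Os10g04860 (chr10:2368422-2368652, plus strand), with folds of 48.5 and 50.5 in FTO root, was the member of the 10 without an FTOmut root peak, yet wild-type shoot gave 22.7 and 100 there. LOC_Os12g07530 (chr12:3749214-3749504, plus strand), at 46 and 48 in FTO and 69 and 37 in FTOmut root, was the one without a wild-type shoot peak. LOC_Os04g58130 (chr4:34613714-34613963, minus strand) had folds of 43 and 65 in FTO root, while its RNA was at 79.2 and 84.4 CPM in wild type and 79.5 and 83.1 in FTO. Its log2 fold change was -0.01 (SE 0.18, edgeR adjusted p = 0.97), and FTOmut root, at 64.8 and 52.0 CPM, held the peak in both lists.

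Hosts differed in whether wild-type root had a peak elsewhere in the gene. In 335 hosts, with 351 gained peaks, wild-type root had none. In the other 204, with 236 gained peaks, it had at least 1 at another place. There the gained peak lay 9 to 5483 bp from the nearest wild-type peak, with a median of 369 bp, upstream of it at 107 sites and downstream at 129. The gap was under 100 bp at 48 sites. An FTOmut root peak stood at 69.1% of the gained sites in hosts with another wild-type peak and at 66.7% in hosts without. A single gained peak was found in 498 hosts, 2 in 36, 3 in 3 and 4 in 2.

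Over 1 in 3 gained peaks coincided with a peak that the authors called in repeats. An FTO root repeat peak overlapped 203 of 587, or 34.6%, against 5.0% of the shared peaks. The contrast was smaller among hosts of like level in wild-type root. Under 1 CPM the shares were 66.4% of gained and 46.4% of shared peaks, at 1 to 10 CPM 15.9% and 6.15%, and from 10 CPM 3.51% and 2.44%. Hosts under 1 CPM held 44.1% of the gained and 3.61% of the shared peaks. For 159 of the 203 the repeat's name began with LTR, as the names of long terminal repeat retrotransposons do. The same held for 330 of the 535 shared peaks over an FTO root repeat peak. At 91 gained peaks, or 15.5%, a wild-type root list of repeat peaks held an overlapping peak although the gene lists did not, which leaves 496 gained peaks with no wild-type root peak of either kind. Repeats share reads with near-identical copies, and the authors' counting can split these, so values of these sites and hosts are uncertain.

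Hosts with 4 gained peaks were LOC_Os07g22410 and LOC_Os12g31250, and every one of these 8 peaks overlapped a repeat peak with an LTR name. In LOC_Os07g22410 the folds were 14 to 20 in FTO replicate 1 and 11 to 29 in replicate 2. Its RNA was at 0.937 and 0.918 CPM in wild-type root, 2.6 and 2.1 in FTO root and 3.04 and 6.56 in FTOmut root. FTO and wild-type libraries did not overlap, and the fitted log2 difference was 1.33 (SE 0.47, edgeR adjusted p = 0.0405), but the call was lost in 6 of 12 alternatives, at 1.08 to 1.42. LOC_Os12g31250, at 0.669 and 1.15 CPM in wild type and 2.52 and 2.1 in FTO, was not called (1.33, edgeR adjusted p = 0.072). LOC_Os05g50060 had 3 gained peaks, also over such repeats, and lay at 0.335 and 0.402 CPM in wild type and 1.02 and 0.823 in FTO root (edgeR adjusted p = 0.213).

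Hosts of gained peaks were expressed at lower levels than hosts of shared peaks. Their median was 2.54 and 2.58 CPM in the wild-type root libraries, 3.07 and 3.22 in FTO and 3.04 and 4.41 in FTOmut, while hosts of shared peaks had 20.6 and 20.7 in wild type. Under 1 CPM in both wild-type libraries were 203 of the 539 hosts, and under 1 CPM in both FTO libraries 68. These levels are not per length, and the median gene length was 2622 bp for the hosts and 1899 bp for hosts of shared peaks. Of the gained peaks, 44.1% lay in hosts with a wild-type mean under 1 CPM and 29.1% in hosts at 10 CPM or more. The share with an FTOmut root peak was 66.4% and 70.2% in these groups. An FTO root repeat peak coincided with 66.4% and 3.51%, against 46.4% and 2.44% of the shared peaks at these levels. A bulk sample does not tell fewer cells of a type from less RNA per cell.

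**Figure D3:**
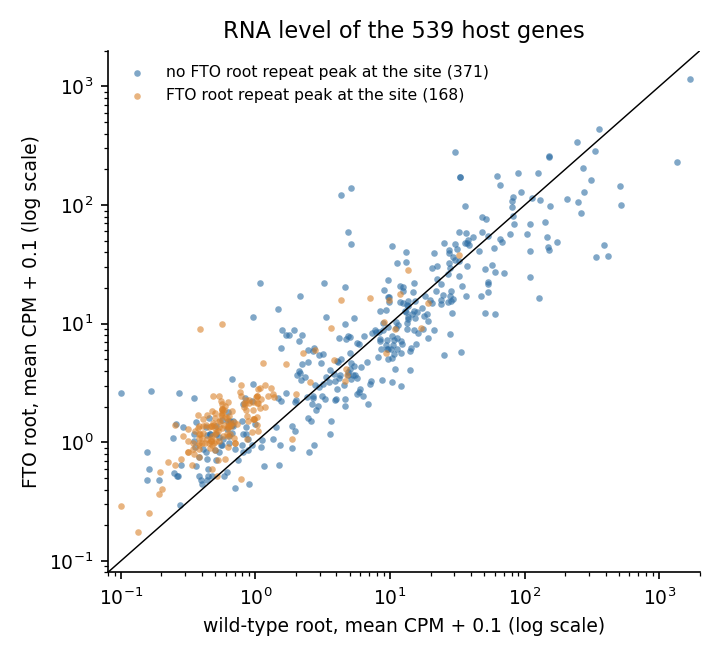
Mean CPM plus 0.1 of each of the 539 hosts in wild-type root (x axis) and FTO root (y axis), both on log scales, with the line of equality. The 168 hosts with an FTO root repeat peak at a gained site crowd near 1 CPM and above the line, while the other 371 spread to both sides of it.

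Between FTO and wild-type root, hosts were called in both directions. Of 523 hosts tested, 109 were higher in FTO and 85 lower (20.8% and 16.3%), and over all 32467 genes tested 16.3% were higher and 18.8% lower, 35.1% in either direction. The median log2 fold change was 0.55 over the hosts and 0.19 over all genes tested. Hosts of shared peaks had 1224 higher and 2844 lower of 9722, with a median of -0.27, which turned with ERCC scaling to 2637 higher and 742 lower with a median of 0.24. A host could pass the filter on low counts through the genotype where it is high. With no filter, 76 of all 539 hosts were higher and 93 lower, with a median of 0.34 against 0.49 over all genes. The host median was also under that of all genes without wild-type replicate 1 (0.35 against 0.36) or 2 (0.36 against 0.42). The same held without FTO replicate 2 (0.52 against 0.56) or FTOmut replicate 1 (0.53 against 0.58). In the other alternatives the host median was higher, as with DESeq2 (0.44 against 0.08) and ERCC scaling (1.07 against 0.69).

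The host counts moved with scaling and with single libraries. Scaling to ERCC counts moved the median of all genes to 0.69 and gave 199 hosts higher and 38 lower. Thus 84.0% of the called hosts were higher, against 56.2% with TMM, and over all genes 9638 were higher and 2419 lower. With no filter 45.0% of the called hosts were higher, and over all genes 3999 were higher and 6918 lower. Against 194 called hosts over 6 libraries, 301 and 312 were called without FTOmut replicate 1 and 2, 85 and 90 without FTO replicate 1 and 2, and 106 and 101 without wild-type replicate 1 and 2. Without a wild-type library, more hosts were called lower than higher, and the same was true of all genes. The numbers of all genes called rose and fell with those of the hosts when 1 library was left out.

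Hosts over repeat peaks and the other hosts differed in their medians. The 159 tested over repeat peaks had a median log2 fold change of 1.39, with 37 higher and 2 lower, or 23.3% and 1.26%. Over all genes tested the median was 0.19, with 16.3% higher and 18.8% lower. With no filter, 29 of all 168 such hosts were higher and 2 lower, with a median of 1.14 against 0.49 over all genes. These hosts were chosen by peaks called in FTO root and missing from wild-type root, and a peak needs enough reads. The choice can thus favour hosts with less RNA in wild type, which was not tested. Their median level was 0.468 and 0.516 CPM in wild-type root, 1.5 and 1.27 in FTO root and 1.4 and 3.61 in FTOmut root, so all transgenic libraries were above both wild-type ones. With a single library left out, 5 (without wild-type replicate 1) to 97 (without FTOmut replicate 2) of them were higher, and the median stayed between 1.06 and 1.45. The other 364 hosts had a median of 0.04, with 72 higher and 83 lower, or 19.8% and 22.8%. With a single library left out, 31 (without wild-type replicate 2) to 100 (without FTOmut replicate 1) of these were higher and 39 (without FTO replicate 2) to 114 (without FTOmut replicate 2) lower, and ERCC scaling gave 121 higher and 38 lower. Hosts with another wild-type root peak had a median of 1.00, with 48 higher and 16 lower of 200, with 8 to 100 higher and 4 to 26 lower when 1 library was left out. Without wild-type replicate 1 it was 8 higher and 14 lower. Over all 6 libraries, the shares in hosts with another wild-type root peak were 24.0% higher and 8.0% lower. Hosts with no wild-type root peak had a median of 0.14, with 61 higher and 69 lower of 323, or 18.9% and 21.4%. Leaving out 1 library gave 30 to 97 higher and 35 to 91 lower, and ERCC scaling 103 higher and 35 lower.

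With TMM scaling, well expressed hosts were more often lower than higher in FTO, as were all genes of that level. Counts at that level were not made with ERCC scaling, which turned all genes tested to 9638 higher and 2419 lower. Of the 154 hosts at 10 CPM or more in both wild-type root libraries, 26 were higher, 62 lower and 66 not called, and 59 of those 66 were within 0.5 of wild type on the log2 scale. That is 16.9% higher and 40.3% lower, against 18.2% and 34.8% of all 11785 genes at that level, a level chosen on the wild-type libraries of the test itself. The 5 hosts of high level with the smallest change were LOC_Os04g58130, LOC_Os08g12760, LOC_Os01g14580, LOC_Os02g13400 and LOC_Os05g33040. LOC_Os02g13400, for one, was at 27.4 and 37.1 CPM in wild type and 30.2 and 37.6 in FTO, and its peak (chr2:7150397-7150537, plus strand) had folds of 20 and 44 in FTO and 51 and 69 in FTOmut root. Gains of a peak thus went with higher, lower and little changed host RNA.

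Between FTOmut and wild-type root, 222 hosts were higher and 115 lower of 523 (42.4% and 22.0%), against 32.5% and 29.1% of all genes, 61.6% in either direction. The median was 0.64 over the hosts and 0.06 over all genes. With no filter these were 0.38 and 1.3, so hosts then lay below all genes. With 1 library left out, hosts lay below all genes, at 0.24 to 0.45 against 0.95 to 1.1. The exception was leaving out FTOmut replicate 2, at 0.47 against 0.05. In the other alternatives hosts stayed above, as with ERCC scaling (0.62 against 0.06). The comparison of FTOmut with wild type shares the wild-type libraries with that of FTO. Of the hosts over repeat peaks, 130 of 159 were higher and 4 lower with a median of 2.27, and without FTOmut replicate 2 there were 97 higher and 3 lower with a median of 1.44. Without wild-type replicate 1 or 2, 46 and 51 of these hosts were higher. Fewer of all hosts were called without wild-type replicate 1 or 2, and more of them were lower than higher. The same was true of all genes tested. The median over all hosts was then 0.45 and 0.41, against 0.95 and 1.03 over all genes. The summed level of 4 genes of green tissue was 606 and 382 CPM in FTOmut roots, 69.5 and 85.5 in wild type and 51.6 and 42.6 in FTO, and none was at 0. Summed root markers, the silicon transporter genes Lsi1 and Lsi2 and the nitrate uptake partner OsNAR2.1, came to 1070 and 697 CPM in FTOmut, 712 and 668 in wild type and 375 and 347 in FTO. The single markers differed. Lsi1 dropped from 221 and 133 CPM (wild type) to 47.6 and 50.9 (FTO). Lsi2 dropped from 235 and 208 to 83.2 and 88.7. OsNAR2.1 changed less, from 256 and 327 to 244 and 207. FTOmut replicate 1 exceeded both wild-type libraries for every marker. In FTOmut replicate 2, Lsi1 (123 CPM) and Lsi2 (160) lay below both wild-type libraries, while OsNAR2.1 (414) lay above. Of the green-tissue genes, only OsRBCS2 lay below there, at 15.9 against 16.3 and 20.9. The markers' part in the results was not tested.

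FTO and FTOmut roots, which differ in the activity of the protein, were compared directly. Here 76 hosts were higher in FTO and 32 lower of 523 (14.5% and 6.12%), against 14.8% and 5.47% of all genes, 20.3% in either direction, so the shares lay near those of all genes. The median was -0.22 over the hosts and -0.11 over all genes, and 0.29 and 0.40 with ERCC scaling, under which 164 hosts were higher and 12 lower. Without FTOmut replicate 2, which stood apart, 58 hosts were higher and 57 lower, and over all genes 3638 and 3519. Without FTOmut replicate 1 more hosts were called than the 108 over all 6 libraries. Fewer were called without any 1 of the FTO or wild-type libraries. The numbers of all genes called moved the same way. Of the 159 hosts over repeat peaks, 4 were called, all higher in FTO, while the median of the group was -0.85, with quartiles of -1.09 and -0.45. Without FTOmut replicate 1, 10 of these hosts were higher and 71 lower of 166, and without FTOmut replicate 2 there were 2 and 3 with a median of -0.12. Hosts whose gained peak had no FTOmut root peak gave 29 higher and 7 lower of 162, or 17.9% and 4.32%. Hosts with one gave 47 and 25 of 361, or 13.0% and 6.93%. Without FTOmut replicate 2 both splits moved toward even, as did that of all genes. The medians of hosts without and with an FTOmut peak were then 0.08 and -0.10, against -0.01 over all genes. Without FTOmut replicate 1 these medians were 0.16 and -0.09, against -0.45. Leaving out any 1 of the FTO and wild-type libraries gave medians of -0.03 to 0.17 and of -0.32 to -0.05, against -0.50 to -0.15 over all genes.

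**Figure D4:**
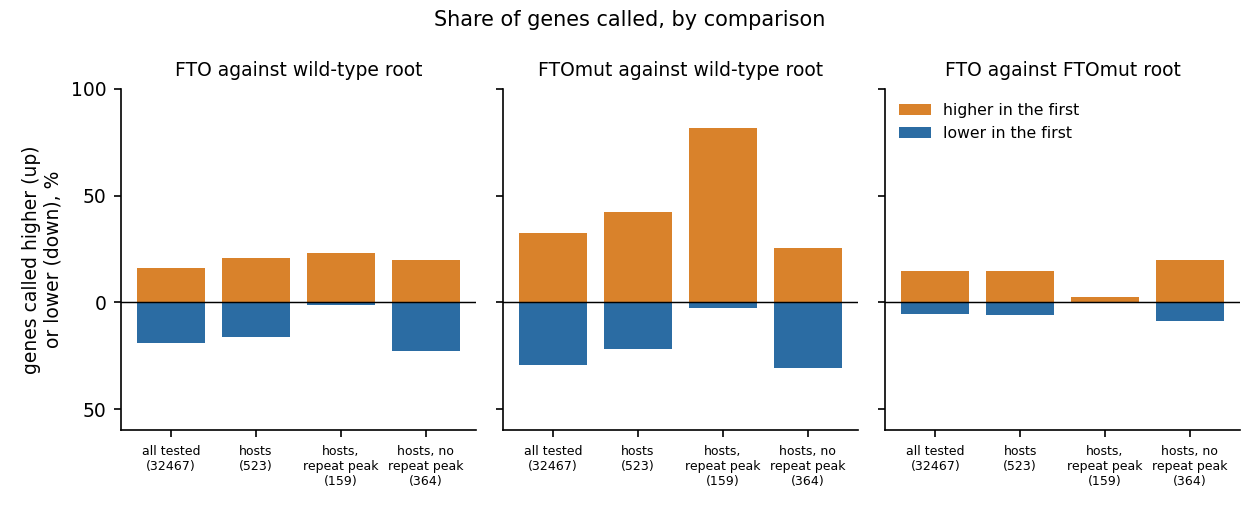
Percent of genes called higher (bars up) and lower (bars down) in the first genotype of each comparison, for all genes tested, all hosts, and hosts with and without an FTO root repeat peak at a gained site, with the number tested below each bar. The largest bar is that of hosts over repeat peaks in FTOmut against wild type, at 81.8%.

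The 8 hosts with the largest increases in FTO root kept their call against wild type under all 12 alternatives. First among them was LOC_Os11g14900, at 0.402 and 0.172 CPM in wild-type root, 8.98 and 8.75 in FTO root and 0.643 and 1.31 in FTOmut root. FTO stood above both other genotypes, with log2 fold changes of 4.95 against wild type (SE 0.47, edgeR adjusted p = 2.03e-06) and 3.14 against FTOmut (edgeR adjusted p = 6.45e-05). Its gained peak on chromosome 11 had folds of 9.5 and 12.5, lay over a repeat peak with an LTR name and was in none of the other 8 lists.

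OsHOX24 (LOC_Os02g43330), a homeodomain-leucine zipper transcription factor gene known in rice for its response to drought and abscisic acid, showed the same pattern. It was named after its values were seen. Its RNA was at 3.81 and 6.25 CPM in wild-type root, 146 and 135 in FTO root and 9.77 and 16.1 in FTOmut root. The log2 fold change was 4.79 against wild type (SE 0.30, edgeR adjusted p = 1.02e-07) and 3.44 against FTOmut (edgeR adjusted p = 3.78e-06). The gained peak (chr2:26143994-26144103, plus strand) was weak, with folds of 4.13 and 4.36, and was found in no other list. In wild-type shoot, where the gene was at 20.9 and 48.9 CPM, no peak was called at the site either.

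LOC_Os04g33640 rose in both transgenic genotypes, from 4.62 and 3.79 CPM in wild type to 115 and 126 in FTO and 256 and 187 in FTOmut root, with log2 fold changes of 4.84 (SE 0.24, edgeR adjusted p = 6.54e-09) and 5.72 (SE 0.25, edgeR adjusted p = 1.58e-09). Its peak had folds of 8.26 and 9.54 in FTO and 7.31 in FTOmut replicate 1, and both wild-type shoot lists held it, at 16.5 and 5.42. The remaining 5 were LOC_Os05g36140, LOC_Os05g20954, LOC_Os11g40340, LOC_Os03g43880 and LOC_Os10g41838, with log2 fold changes of 3.25 to 4.52. Of the 8 hosts, 7 were also higher in FTOmut than in wild type, 6 had an FTOmut root peak at the site, and 1 had a wild-type shoot peak there. Over all genes tested 32.5% were higher in FTOmut. Of all gained peaks 67.6% had an FTOmut root peak and 58.3% a wild-type shoot peak. The count in FTOmut is not independent of the choice, which used the same wild-type libraries. The FTOmut call of LOC_Os11g14900 was lost under 5 alternatives, at 1.03 to 1.88, and that of LOC_Os02g43330 without wild-type replicate 1, at 0.77.

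**Figure D5:**
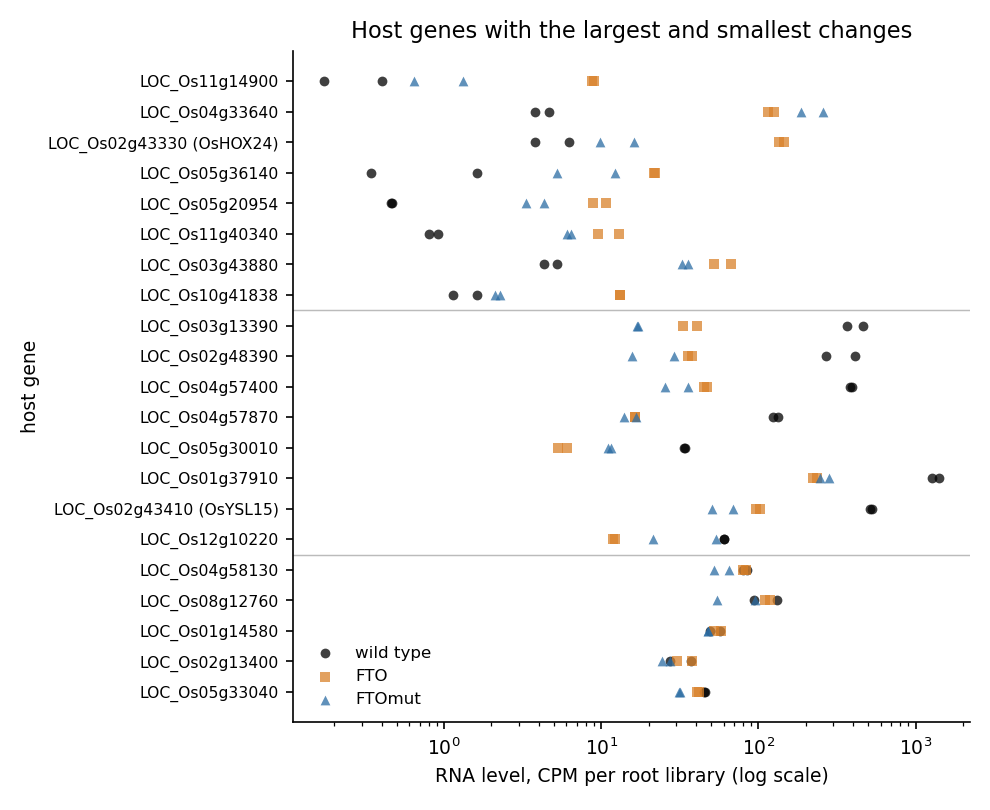
CPM on a log scale (x axis) in each of the 6 root libraries for the 8 hosts with the largest increases (top), the 8 with the largest decreases (middle) and the 5 with the smallest changes (bottom) in FTO against wild-type root. In the top and middle blocks no FTO library overlaps a wild-type one, because these hosts were chosen so. FTOmut lies on the FTO side of wild type for most hosts, against the same wild-type libraries that served the choice.

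The 8 hosts with the largest decreases gained a peak while their RNA fell, and they too kept their call against wild type under all 12 alternatives. OsYSL15 (LOC_Os02g43410), a root transporter of iron bound to phytosiderophores, was at 532 and 513 CPM in wild-type root, 102 and 97.0 in FTO root and 69.0 and 50.7 in FTOmut root. Its gained peak (chr2:26204317-26204466, minus strand) had folds of 27 and 6.37 in the FTO root lists and was in none of the other 8. No peak was called in wild-type root although its RNA was 5.24-fold more abundant there (log2 fold change of FTO -2.39, SE 0.20, edgeR adjusted p = 4.75e-07). In wild-type shoot the gene was at 0.415 and 0.169 CPM.

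LOC_Os03g13390 fell furthest, from 367 and 464 CPM in wild type to 40.6 and 33.3 in FTO and 16.8 and 17.1 in FTOmut root (log2 fold change of FTO -3.49, SE 0.21, edgeR adjusted p = 2.57e-08). Unlike that of OsYSL15, its peak (chr3:7231351-7231570, plus strand), with folds of 10.9 and 8.54 in FTO root, was found in all of the other 8 lists. These included wild-type shoot at 8 and 21, where the RNA was at 11.4 and 9.3 CPM. Wild-type root, whose lists lacked the peak, thus had more of this RNA than wild-type shoot or FTO root. LOC_Os02g48390 was similar: its peak (chr2:29627580-29627919, plus strand) was in all 10 lists other than those of wild-type root, at 11 to 53.3, and its RNA was at 413 and 268 CPM in wild-type root against 35.6 and 37.9 in FTO root and 11.1 and 9.41 in wild-type shoot. The cause of these absences was not tested.

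LOC_Os01g37910 was the most abundant of the 8, at 1280 and 1410 CPM in wild-type root, 236 and 223 in FTO root and 283 and 245 in FTOmut root. Its peak had folds of 7.17 and 5.28 in FTO and 3.71 and 5.77 in FTOmut root. LOC_Os12g10220, at 60.6 and 60.5 CPM in wild type and 12.3 and 11.8 in FTO, was the one not called in FTOmut, where its libraries stood at 53.9 and 21.3. The others, LOC_Os04g57400, LOC_Os04g57870 and LOC_Os05g30010, had log2 fold changes of -3.08, -2.97 and -2.57. Of the 8 hosts, 7 were lower in FTOmut than in wild-type root as well, against the same wild-type libraries that served to choose them. Over all genes tested 29.1% were lower in FTOmut. At a gained site, 5 of the 8 hosts had an FTOmut root peak and 6 had one in wild-type shoot, against 67.6% and 58.3% of all gained peaks.

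OsYSL15 and LOC_Os03g13390 were the hosts among 85 genes listed for pathways and tissues, and both stand on the list of 10 genes of iron uptake and phytosiderophore synthesis. Of those 10, 9 were lower and none higher in FTO and also in FTOmut root than in wild type, against 18.8% and 29.1% of all genes called lower. The medians were -2.24 and -4.49, against 0.19 and 0.06 over all genes. Between FTO and FTOmut, 9 were higher in FTO and none lower, with a median of 1.43, against 14.8% of all genes called higher. For OsYSL15 that call was lost from 4 libraries alone and with no filter, at log2 fold changes of 0.62 and 0.74. Its log2 fold change was 0.41 without FTOmut replicate 2. These lists were compiled with results of these samples known, so the count is not independent of them.

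Gained peaks occurred on all 12 chromosomes, as 2.81% (chromosome 3) to 5.57% (chromosome 12) of the FTO replicate 1 peaks there.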

How the data were processed

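Peaks were called by the authors with MeTPeak, per the labels' descriptions, 1 list per replicate of gene peaks and of repeat peaks. The deposited fold is the ratio of immunoprecipitate to input, the deposited FDR is in log10 units, and the deposited score is a p-value. The gene tables hold expected counts deposited by the authors without normalization, made with cutadapt 1.15, HISAT2 2.1.0 and featureCounts of Subread 1.6.4, per the submitters' processing notes. The deposited gene lengths in bp are of an other unit. No source used here gives the genome build or the caller's settings, and positions follow the lists, with a 1-based start, and no sequence is printed.

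Peaks were intersected with bedtools 2.31.1. Counts were rounded, filtered by expression, scaled by TMM and fitted over the 6 root libraries with edgeR 4.0.16 (robust quasi-likelihood F test, two-sided, Benjamini-Hochberg adjusted over all genes tested) in R 4.3.3. SE is that of the fitted log2 fold change. DESeq2 1.42.0, other scalings, no filter, a replicate block and left-out libraries were alternatives. On simulated data for FTO against wild type, with 34261 genes, 98% of genes raised and 82% of genes lowered by 2 on the log2 scale were called. At 1 it was 36% and 28%, and of unchanged genes 0.0646%. The simulation drew all libraries from a single mean profile and changed 50 genes at each of these levels, in FTO only. In the data 11400 of 32467 genes were called, so these rates may not hold there.

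Named peaks are the 10 with the highest lower fold. Named hosts are the 8 largest increases and decreases among called hosts with a mean log2 CPM of at least 1 and no overlap between libraries, the 5 smallest changes at a mean of at least 5, the 3 with most gained peaks, and listed genes. Members, lists and tests were chosen with earlier results of these data known. The identifiers matched 0 entries of the reference gene table (assembly ASM3414082v1), so a symbol is printed only where it occurs there once on the chromosome of the identifier. Where peaks lie within transcripts was not analysed here.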

Additional observations from a re-analysis of the deposited data

How the results depend on the processing

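The number of gained peaks was 587 with overlap measured on whole spans, and the same when a fold of at least 2 was required, since all peaks pass it. It was 643 when 50% of the blocks had to be covered, 585 from the FTO replicate 2 list, 496 without sites of wild-type repeat peaks, 352 at a log10 FDR of -5 or under, 301 at a fold of at least 10, 323 for hosts at 1 CPM or more in both wild-type libraries, and 1168 to 2241 with 1 list left out. The share with an FTOmut root peak was 67.6%, 38.2% when both lists had to hold it, and 51.6% to 54.2% with 1 list left out. Between FTO and wild type, 302 hosts were called from the 4 libraries alone, and 85 to 312 with 1 library left out. The host median of 0.55 became 0.44 from 4 libraries and with DESeq2, 1.07 with ERCC scaling, 0.43 with RLE, 0.34 with no filter, 0.58 with the replicate block, and 0.35 to 0.53 with 1 library left out. Between FTOmut and wild type, 189 to 415 hosts were called with 1 library left out, and the median was 0.38 with no filter and 0.24 to 0.47 with 1 left out. Between FTO and FTOmut, ERCC scaling gave 176 hosts and a median of 0.29, and leaving out 1 library gave 51 to 266 hosts and medians of -0.27 to 0.03. Replicate numbers did not pair the libraries (correlations of deviations -0.039, 0.209 and -0.286), and the replicate block called 220, 332 and 119 hosts in the 3 comparisons, against 194, 337 and 108. Exchanging the FTOmut numbers in the block gave 99 for FTO against FTOmut. Alternatives with repeat peaks, a fold of 10 and exchanged numbers were chosen after seeing the data. Beyond settings with fewer samples or peaks, the cause was not tested. The read depth behind single peaks is unknown, and changes of hosts near 1 CPM rest on few counts.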
